A study of Solanum lycopersicum with 17 samples.

Results

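The Aux/IAA auxin repressors of tomato fruit studied here were the 5 genes IAA2, IAA3, IAA7, IAA16 and IAA27. A further Aux/IAA gene on the array, IAA17, is given apart below. The members were taken as every probe set to which the array's annotation gives 1 of those 5 symbols. That gave 10 probe sets of the 10101 tested, and 5 of the 802 genes named on the array. Each gene had 1 probe set marked S and 1 marked A in its identifier, which in the maker's naming stand for the sense strand and its opposite. RNA abundance was measured on 17 Affymetrix tomato arrays, each with total RNA from a pool of 8 fruits. The design text of the series assigns every array to a single plant. Values are log2 RMA values, and a difference of 1 is a doubling of the signal.

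The control with seeds was whole wild-type fruit (3 arrays), and the control without seeds was wild-type fruit that was deseeded by hand (3 arrays). The INO-IaaM and DefH9-IaaM lines (3 arrays each) carried iaaM, a bacterial gene of auxin synthesis from tryptophan. The INO-RolB line (3 arrays) and the DefH9-RolB line (2 arrays) carried rolB, from Agrobacterium rhizogenes, which changes how plant cells respond to auxin. The promoters were those of the ovule gene INO and of DefH9, which is active in placenta and ovules, while the RNA came from fruit as a whole. The labels give no age or stage of the fruit, no wild-type cultivar and no number of independent transformants behind a line. In pooled fruit, fewer cells of a type and less RNA per cell cannot be told apart.

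Aux/IAA proteins are short-lived nuclear repressors that bind auxin response factors (ARFs) and keep auxin-responsive genes off. Auxin brings them together with the TIR1/AFB receptors, after which they are degraded. Many Aux/IAA genes are themselves switched on by auxin, so the family is both a brake on the auxin response and part of its early output. In tomato, IAA3 is known from plants with lowered IAA3 to act in both auxin and ethylene responses, and IAA27 to act in root and leaf growth.

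The arrays had the marks of fruit tissue. The seed list was partly chosen from earlier results of these data, so it describes seed signal and cannot check the labels. The fruit transcripts 2A11 and E8, the latter a ripening gene, had group means of 14.15 to 14.26 and 13.63 to 13.82. Of the 7 probe sets of the fruit list, 3 (NP24-I, TDR4 and TPRP-F1) were called higher in every line than with seeds, and 0 lower. TPRP-F1 read 3.44 to 4.09 with seeds, inside the silent range described below, and rose by up to 3.35 in DefH9-RolB (limma adjusted p = 0.00361). The 7 probe sets of the seed list averaged 10.62 to 10.94 on arrays with seeds and 7.58 to 8.78 on those without, and 5 of the 7 were lower without seeds. In each line 4 of these 7 were lower than with seeds. Against that direction, MAN2 was higher in INO-IaaM by 1.70 (limma adjusted p = 0.00951), and HSP17.4 differed by 0.53 in INO-RolB and 1.02 in DefH9-RolB, neither called. MAN2 read 5.00 to 6.34 in INO-IaaM, partly inside the silent range. In INO-RolB and DefH9-RolB it averaged 4.33 and 4.96 against 3.97 with seeds, with every array of these groups inside that range. HSP17-6 averaged 13.30 and 13.43 there, against 13.30 with seeds. Against the control with seeds, 0 of the list were called higher in the RolB lines. The mean of the RolB lines against the control without seeds gave 1 called higher and 1 lower (8.7% and 8.01% of all probe sets). The seed list averaged 7.08 to 9.05 over the line arrays, the highest being INO-IaaM replicate 2. Array medians lay between 8.37 and 8.43, and arrays of 1 group correlated at 0.986 to 0.995. Reporter probe sets for foreign sequences gave a silent range: 61 of 63 stayed below the median on every array, at 2.45 to 5.49, and a level in that range is not told apart from absence. The 2 others were high in the lines, except that RPTR-Les-A00196-1_s_at read 3.93 in DefH9-RolB replicate 1, below the highest control at 4.36. The comparisons of IAA3 and IAA27 that use this array are therefore also given without it.

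**Figure D1:**
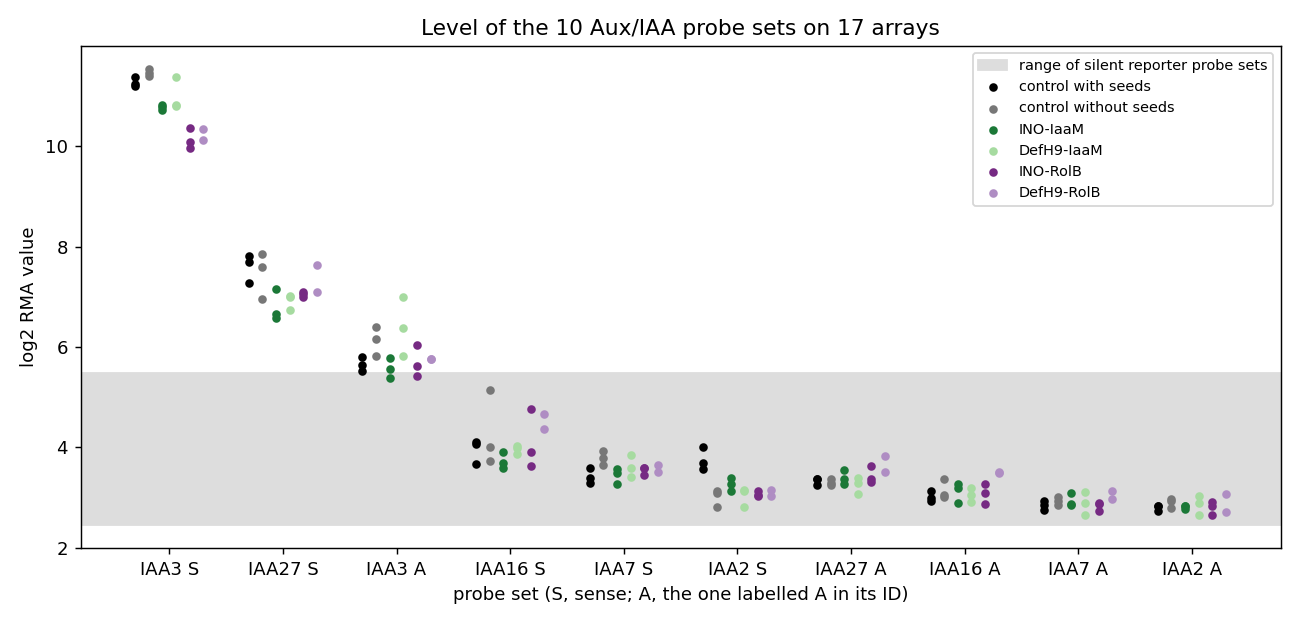
Level (log2 RMA value) of the 10 Aux/IAA probe sets, 1 point per array and 1 colour per group, ordered from bright to dim, with the silent reporter range of 2.45 to 5.49 shaded. The S probe sets of IAA3 and IAA27 lie above the shading on all 17 arrays, the A probe set of IAA3 on 15, and the other 7 probe sets lie inside it on every array.

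The 5 genes divided into expressed and unmeasured members. IAA3 was the bright one: its S probe set (the gene is on chromosome 9) averaged 10.85 over all arrays, above 83.2% of the probe sets tested. IAA27 (chromosome 3) averaged 7.19, above 35.4% of them. The ending _s_at of its identifier marks a probe set that can match more than 1 transcript, so the IAA27 signal may hold RNA of a related gene. The other S probe sets, those of IAA2, IAA7 (chromosome 6) and IAA16 (chromosome 1), never left the silent range. In all, 7 probe sets stayed between 2.65 and 5.15 on every array. These levels do not order the genes, since probe sets differ in brightness for the same amount of RNA.

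IAA3 was lowest in the RolB lines and highest in wild-type fruit. It read 11.37, 11.23 and 11.19 on the 3 arrays of the control with seeds, and 11.54, 11.46 and 11.40 on those of the control without seeds. INO-IaaM gave 10.82, 10.78 and 10.71, and DefH9-IaaM gave 10.82, 11.37 and 10.79. INO-RolB gave 10.08, 9.96 and 10.37, and DefH9-RolB gave 10.13 and 10.35. All 5 RolB arrays thus lay below all 6 IaaM arrays, and 10 of the 11 line arrays lay below every wild-type array. The exception was DefH9-IaaM replicate 2, at the level of the control with seeds.

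**Figure D2:**
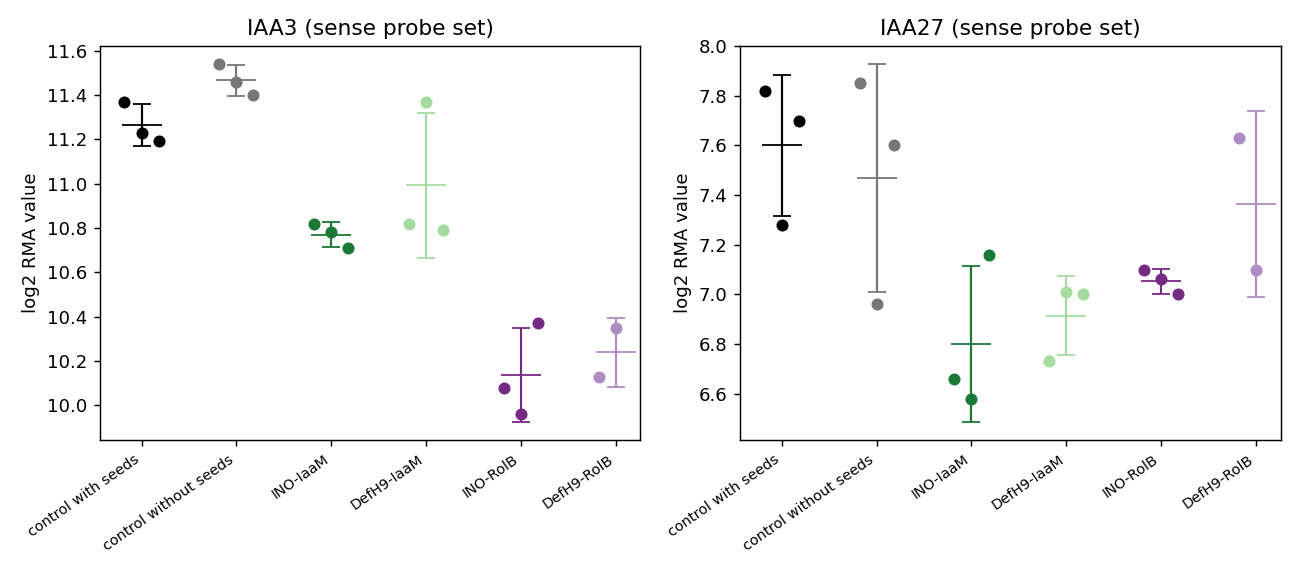
Level (log2 RMA value) of the S probe sets of IAA3 and IAA27 by group, with 1 point per array, the group mean as a line and the SD as a bar. IAA3 falls in steps from wild type (11.19 to 11.54) through the IaaM lines (10.71 to 11.37) to the RolB lines (9.96 to 10.37), while the IAA27 groups overlap more and its lowest arrays are those of INO-IaaM.

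Against the control with seeds, at 11.26 ± 0.10 (SD, n = 3), IAA3 fell in both RolB lines. In INO-RolB it stood at 10.14 ± 0.21 (SD, n = 3), a fall by 1.13 ± 0.14 (SE; limma adjusted p = 0.000199), which left 45.8% of the control signal (95% interval 36.9 to 56.8%). In DefH9-RolB it stood at 10.24 ± 0.15 (SD, n = 2), a fall by 1.02 ± 0.16 (SE; limma adjusted p = 0.0012), which left 49.3% (38.8 to 62.7%). Without DefH9-RolB replicate 1 IAA3 fell by 0.91 (limma adjusted p = 0.0225). Among all 10101 probe sets, 3.07% in INO-RolB and 3.09% in DefH9-RolB had a difference as low as that of IAA3 or lower.

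In the IaaM lines IAA3 was lower by less. INO-IaaM, at 10.77 ± 0.05 (SD, n = 3), differed from the control with seeds by -0.49 ± 0.14 (SE; limma adjusted p = 0.0346). Its 3 arrays did not overlap with those of the control, yet the call was lost when any 1 of the 6 arrays of both groups was left out (adjusted p up to 0.115), and with the 5' minus 3' covariate described below (adjusted p = 0.193). With the replicate block the adjusted p was 0.0526. DefH9-IaaM, at 10.99 ± 0.33 (SD, n = 3), differed by -0.27 ± 0.14 (SE; limma adjusted p = 0.21). That value rests on replicate 2: without it the difference was -0.46 (limma adjusted p = 0.0159).

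Wild-type fruit with and without seeds did not give IAA3 a call. The control without seeds was higher by 0.20 ± 0.14 (SE; limma adjusted p = 0.556), with a 95% interval of -0.11 to 0.51. Paired by replicate number, the differences were 0.17, 0.23 and 0.21, all of 1 sign. A fit of the 6 control arrays with the replicate block, added after seeing the data, gave an SE of 0.07 and an interval of 0.01 to 0.40 (limma adjusted p = 0.208). The arrays of the 2 controls did not overlap, by a gap of 0.026. Against wild-type fruit whose seeds were removed, IAA3 was lower in lines of either transgene. The labels do not give the seed content of the lines. The mean of the RolB lines lay below the control without seeds by -1.28 ± 0.13 (SE; limma adjusted p = 0.000191), or 41.3% of its signal (34.0 to 50.1%), the 8th smallest p of the 10101 probe sets. Without DefH9-RolB replicate 1 that difference was -1.22 (limma adjusted p = 0.00138). The mean of the IaaM lines lay below it by -0.58 ± 0.12 (SE; limma adjusted p = 0.0119), or 66.8% (55.4 to 80.4%). The second of these was not called without control without seeds replicate 1 (adjusted p = 0.0567) or with the 5' minus 3' covariate (adjusted p = 0.0733).

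The transgenes themselves were compared directly, since the comparisons above share their control arrays. IAA3 was higher in the IaaM lines than in the RolB lines by 0.69 ± 0.11 (SE; limma adjusted p = 0.00737), that is, 162% of the RolB level (138 to 190%), with the 23rd smallest p of 10101. Without any 1 array the difference lay between 0.60 and 0.75, with adjusted p up to 0.0402. That highest p was the one without DefH9-RolB replicate 1, where the difference was 0.64. The lowest IaaM array (10.71) lay above the highest RolB array (10.37), a separation that leaving out an array cannot undo. IAA3 was the 1 member probe set called higher there, where 0.99% of all probe sets were called higher and 1.93% lower. The promoters gave no such difference: DefH9 minus INO was 0.16 ± 0.11 for IAA3 (95% interval -0.07 to 0.40), and the promoter by transgene interaction was 0.12 ± 0.22 (-0.35 to 0.58). Without DefH9-RolB replicate 1 these were 0.22 and 0.0072. Of the 10 members, 0 were called in either of these by limma, as was 0% of all 10101 probe sets. At an unadjusted p below 0.05 there were 1 member and 378 probe sets for the promoters, and 2 members and 386 probe sets for the interaction.

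**Figure D3:**
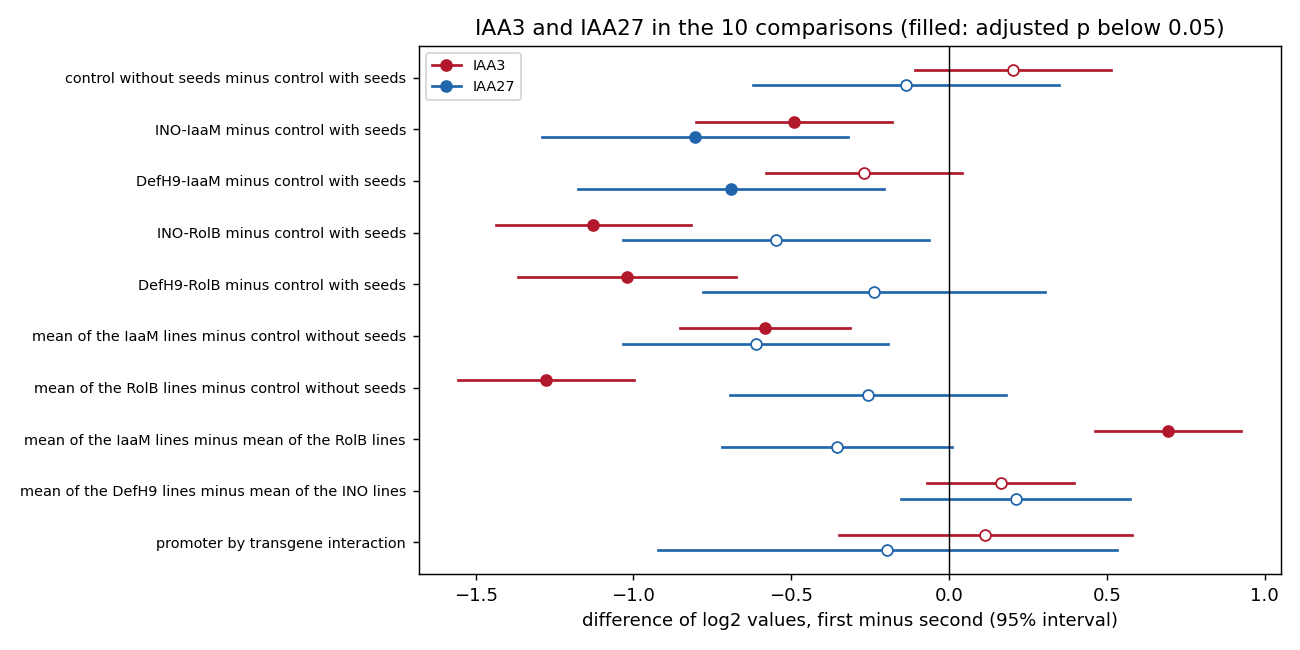
Difference of log2 values with its 95% interval for IAA3 (red) and IAA27 (blue) in the 10 comparisons, filled where the limma adjusted p over all probe sets was below 0.05. The filled IAA3 points reach -1.28 for the RolB lines against the control without seeds, and IAA27 is filled in the IaaM lines against the control with seeds, at -0.81 and -0.69.

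Measures of the arrays moved with these groups. RNA quality was read from the control probe sets of actin and gapdh as the signal at the 5' end minus that at the 3' end, which lay between -0.92 and -0.57 in the controls, -0.70 and -0.34 in the IaaM lines and -0.45 and -0.37 in the RolB lines. DefH9-IaaM replicate 2, with the highest IAA3 of any line array, had the lowest value of the lines, -0.70. With this measure as a covariate, IAA3 was lower by -0.98 in INO-RolB (limma adjusted p = 0.00852) and by -0.84 in DefH9-RolB (0.045), and the IaaM lines exceeded the RolB lines by 0.65 (0.0154). Neither the RolB arrays nor those of INO-IaaM overlap with the controls in this measure. The lowest INO-IaaM array was at -0.565 and the highest control at -0.575. DefH9-IaaM overlaps with the controls by its replicate 2. RNA quality and the RolB lines or INO-IaaM can therefore not be told apart against wild type, also with the covariate. The BioC minus BioB hybridization spike signal was 1.06 to 1.12 on the 5 RolB arrays and 0.46 to 0.71 on the 12 others. It therefore separates the same arrays as IAA3 does, and what comes from the RolB lines and what comes from the hybridization of their arrays cannot be told apart. The fruit list averaged 11.75 to 12.14 in the lines and 11.05 to 11.66 in the controls, and its part in the results was not tested.

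**Figure D4:**
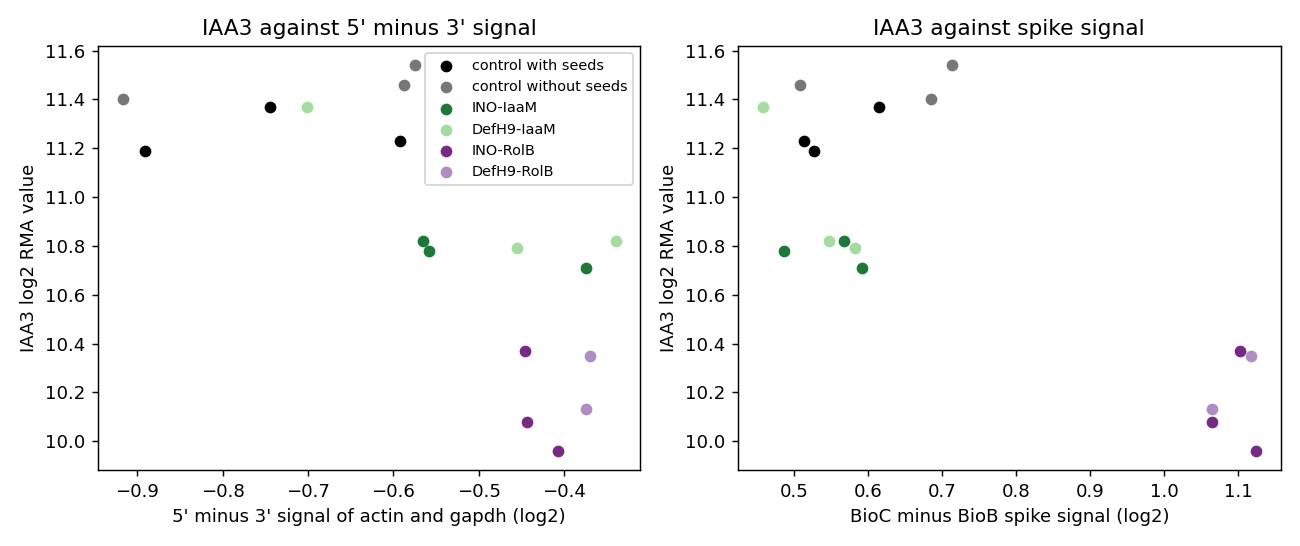
IAA3 level (log2 RMA value) against the 5' minus 3' signal of actin and gapdh (left, log2) and against the BioC minus BioB spike signal (right, log2), 1 point per array. On the right the 5 RolB arrays stand apart on both axes, at a spike signal of 1.06 to 1.12 and an IAA3 level of 9.96 to 10.37.

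IAA27 followed another order, with its lowest means in the IaaM lines. It read 7.82, 7.28 and 7.70 with seeds and 7.85, 6.96 and 7.60 without. INO-IaaM gave 6.66, 6.58 and 7.16, and DefH9-IaaM gave 6.73, 7.01 and 7.00. INO-RolB gave 7.10, 7.06 and 7.00, and DefH9-RolB gave 7.63 and 7.10. The arrays of INO-IaaM, DefH9-IaaM and INO-RolB all lay below those of the control with seeds, but each group overlapped with the control without seeds, whose replicate 2 was low.

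Against the control with seeds, at 7.60 ± 0.28 (SD, n = 3), IAA27 was called lower in both IaaM lines. INO-IaaM, at 6.80 ± 0.31 (SD, n = 3), differed by -0.81 ± 0.23 (SE; limma adjusted p = 0.0288), which is 57.2% of the control signal (95% interval 40.9 to 80.1%). DefH9-IaaM, at 6.91 ± 0.16 (SD, n = 3), differed by -0.69 ± 0.23 (SE; limma adjusted p = 0.049), or 61.9% (44.2 to 86.6%). Both calls were lost on leaving out single arrays, the first without INO-IaaM replicate 2 or 1 or the control arrays with seeds numbered 1 and 3 (each alone), and the second without any 1 of 11 arrays (adjusted p up to 0.104 and 0.159), and both with the 5' minus 3' covariate (0.139 and 0.188). Fitted on the arrays of the 2 groups alone, the adjusted p was 0.0565 and 0.0574. INO-RolB differed by -0.55 ± 0.23 (SE; limma adjusted p = 0.1), which was called in the fit of its 2 groups alone (adjusted p = 0.0497), and DefH9-RolB by -0.24 ± 0.25 (SE; limma adjusted p = 0.56). The last of these turned to 0.025 without DefH9-RolB replicate 2 and was -0.50 without replicate 1.

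No other comparison called IAA27. The control without seeds differed from that with seeds by -0.14 ± 0.23 (limma adjusted p = 0.845), and by 0.12 without control without seeds replicate 2. The mean of the IaaM lines lay below the control without seeds by -0.61 ± 0.20 (limma adjusted p = 0.0579), a difference that was called with the replicate block (adjusted p = 0.0417). The mean of the RolB lines differed from that control by -0.26 ± 0.20 (limma adjusted p = 0.415), and by -0.39 without DefH9-RolB replicate 1 (0.264). The IaaM lines minus the RolB lines gave -0.36 ± 0.17 (limma adjusted p = 0.274; 95% interval -0.72 to 0.01), so a difference of IAA27 between the transgenes, opposite in sign to that of IAA3, was not shown. Without that array it was -0.22 (limma adjusted p = 0.669). DefH9 minus INO was 0.21 for IAA27 and 0.08 without the array, and the interaction of -0.20 turned to 0.069 without it. Over the 17 arrays IAA3 and IAA27 correlated at r = 0.32, a description of arrays that share groups and normalization.

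The A probe set of IAA3 did not follow its S probe set. It read 5.52, 5.64 and 5.79 with seeds, 5.82, 6.15 and 6.40 without, and 6.38, 7.00 and 5.82 in DefH9-IaaM. The other lines lay between 5.39 and 6.03. It was called higher in DefH9-IaaM than in the control with seeds, by 0.76 ± 0.25 (SE; limma adjusted p = 0.0486). This was not called when any 1 of 14 arrays was left out (adjusted p up to 0.145) or with the replicate block (0.062). Subtracted array medians and the fit of its 2 groups alone also ended the call (limma adjusted p up to 0.144). In the RolB lines, where the S probe set fell, the A probe set differed by 0.05 ± 0.25 (INO-RolB; limma adjusted p = 0.913) and 0.11 ± 0.28 (DefH9-RolB; 0.826). The pair correlated at r = 0.41 over the 17 arrays. Whether the A signal is RNA of the opposite strand was not tested.

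The dim members gave calls inside the silent range, where a level is not told apart from absence. IAA2 read 3.68, 3.57 and 4.01 with seeds, and between 2.82 and 3.39 on the 14 other arrays. It was called lower than the control with seeds in all 5 groups set against it, by -0.74 ± 0.13 (SE; limma adjusted p = 0.00457) in the control without seeds and by -0.49 to -0.71 in the lines. The call in DefH9-RolB was lost without its replicate 1, and the covariate ended those in INO-IaaM (limma adjusted p = 0.17), INO-RolB (0.0681) and DefH9-RolB (0.204). The call in DefH9-IaaM held under all 23 alternatives run for it. That in the control without seeds held without any 1 array and in the paired fit of the controls (limma adjusted p = 0.0262). It was lost in the fit of its 2 groups alone (limma adjusted p = 0.0683). All of the IAA2 levels lie in the silent range, and what RNA this signal holds was not tested. The A probe set of IAA16 was called higher in DefH9-RolB, by 0.47 ± 0.15 (SE; limma adjusted p = 0.046), also inside that range. This call was lost without any 1 of 9 arrays (DefH9-RolB replicate 1 among them) and with the replicate block (limma adjusted p = 0.0692). Quantile normalization again, subtracted array medians, the covariate and the fit of its 2 groups alone also ended it (limma adjusted p up to 0.295). The S probe set of IAA16 reached 5.15 in control without seeds replicate 1, and 3 of its arrays passed the 95th percentile of the silent reporter values, 4.65. Neither probe set of IAA7, and not the A probe sets of IAA2 and IAA27, were called in any of the 10 comparisons.

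Counted over the 10 member probe sets, without a filter, the control without seeds had 1 lower and 0 higher than the control with seeds, against 3.31% of all probe sets lower and 1.02% higher. INO-IaaM had 3 lower and 0 higher (7.83% and 8.24% of all). DefH9-IaaM had 2 lower and 1 higher (8.14% and 9.5%), INO-RolB had 2 lower and 0 higher (9.68% and 11.9%), and DefH9-RolB had 2 lower and 1 higher (7.27% and 8.89%). Without DefH9-RolB replicate 1 the members called numbered 1 in DefH9-RolB and 2 in DefH9-IaaM. In these 5 comparisons, which share the control with seeds, 6 of the 12 calls came from probe sets inside the silent range. The median difference over the 10 probe sets was -0.02, 0.02, 0.03 and 0.14 in the IaaM lines (INO, then DefH9) and the RolB lines (INO, then DefH9), where that over all probe sets was 0.06, 0.05, 0.05 and 0.03. Against the control without seeds, IAA3 was the 1 member called lower in the mean of the IaaM lines (6.39% of all lower and 4.87% higher) and in the mean of the RolB lines (8.01% and 8.7%). Above the silent range, the calls in these 7 comparisons were those of IAA3 and IAA27.

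Other genes of the auxin response on the array were few. By symbol the list took in ARF3, an auxin response factor, and IAA17, a further Aux/IAA gene, and also ARG1 and ARG2, which in tomato are arginases and are not counted as auxin genes. The 4 probe sets of ARF3 and IAA17 gave 0 calls in 40 tests by limma (smallest adjusted p = 0.0796), with 4 at an unadjusted p below 0.05. Over all 10101 probe sets, the calls ran from 0% for the promoters and the interaction to 9.68% lower and 11.9% higher in INO-RolB. Those at an unadjusted p below 0.05 numbered 378 to 3543 per comparison. The 40 tests share arrays and probe sets, so 0 calls is not read as a result about these genes. Both probe sets of ARF3 are marked A, and the brighter lay between 9.18 and 9.63, so a probe set marked A is not always dim. The A probe set of IAA17 lay between 3.78 and 6.41, partly in the silent range, and its S probe set between 3.81 and 4.73, inside it. Which strand these signals come from was not tested.

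The named genes most like IAA3 over the 17 arrays were ribA, an enzyme gene of riboflavin synthesis (Pearson r = 0.94; 0.99 over the 6 group means), LOC543604 (0.91; 0.97) and LOC544268 (0.88; 0.92). ribA ranged less than IAA3, with group means from 11.36 in INO-RolB to 11.86 in the control without seeds. Most like IAA27 were CDKA1, a cyclin-dependent kinase of the cell cycle (0.81; 0.93), GBF12 (0.79; 0.88) and SAM1, an S-adenosylmethionine synthetase (0.77; 0.91). CDKA1 averaged 7.50 with seeds, 6.76 in INO-IaaM and 6.83 in DefH9-IaaM. These are descriptions over 899 named probe sets on arrays that share groups and normalization.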

How the data were processed

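The deposited values are log2 RMA values, 1 per probe set and array. Per the submitters' processing notes the authors used RMA, which corrects background, quantile-normalizes arrays and summarizes probes; its version is not given in the sources used here. Their range shows a log2 scale. Scanner files were not used. Quantile normalization assumes similar overall signal on all arrays, so changes are relative to it.

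Of 10209 probe sets, 108 AFFX control probe sets were left out of the tests, which left 10101, reporter probe sets included. The platform annotation names 1 gene for 909 of these. Of the 909, 885 matched RefSeq (assembly SLM_r2.1) by gene number, from which symbols and chromosomes were taken. IAA2 did not match. No genome build underlies the values, so positions are not printed.

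One mean per group was fitted with limma 3.58.1 in R 4.3.3 (lmFit, eBayes; all 17 arrays, 11 residual degrees of freedom, prior 2.56). The 10 comparisons were contrasts of these means, adjusted by Benjamini-Hochberg over all 10101 probe sets, with a threshold of 0.05. Every adjusted p is two-sided and from this fit unless an alternative is named. Intervals are not adjusted. Replicates are separate plants per the design text, and their small number limits the precision. Replicate numbers were checked as pairs by residual correlations. Of the groups sharing 3 numbers, only the controls had all 3 above 0.1 (0.164 to 0.478), and the numbers were taken as pairing them. INO-IaaM and DefH9-RolB, which share 2 numbers, gave 0.334 and 0.441, so values of this size are not particular to the controls. The fit was repeated with the replicate number as a block, and for the controls alone in this way. All 10 member probe sets are described, other genes were named by the symbol list or as the 3 most correlated named genes, and marker lists covered fruit, seed and green tissue. Of 3 green probe sets, 0 were called in any of the 10 comparisons. The members and lists were chosen with earlier results of these data known. The fit was tested on simulated data. Figures were drawn with matplotlib 3.10.9 in Python 3.11.15.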

Additional observations from a re-analysis of the deposited data

Results flagged for a closer look

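IAA3 differed between the IaaM and RolB lines in a direct test, by 0.69 ± 0.11 (SE; limma adjusted p = 0.00737), with all 6 IaaM arrays above all 5 RolB arrays. The spike signal of the RolB arrays also stood apart, as given in the report.

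Signal was present in 2 reporter probe sets that no comparison of the report is about, although they entered the fit. RPTR-Les-U57609-2_s_at was above every control array on 11 of 11 line arrays (7.14 to 11.31, with controls at most 4.09). RPTR-Les-A00196-1_s_at was above every control array on 10 of 11 line arrays. The exception, DefH9-RolB replicate 1, read 3.93.

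Groups of 2 or 3 arrays are too small for a check for single outlying arrays.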

How the results depend on the processing

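The calls of IAA3 in the 2 RolB lines against the control with seeds, in their mean against the control without seeds, and in the IaaM against the RolB lines held under all 24 alternatives run for each. None of these alternatives adjusted for the spike signal, which separates the RolB arrays from all others. For the other calls the cause was not tested. Against the controls, the 5' minus 3' covariate cannot tell RNA quality from the RolB lines or INO-IaaM, since their arrays do not overlap with the controls in it. With the lowest 30 percent of probe sets left out, 2 of the 10 members (IAA3 and IAA27, S) stayed in the fit, and the members called numbered 0 without against with seeds, 1 in DefH9-IaaM, 1 in each RolB line and 2 in the IaaM lines against the control without seeds. With the 5' minus 3' covariate they numbered 0 in INO-IaaM and 1 in each RolB line. With only the groups of the contrast they numbered 0 without against with seeds, and 1 each in INO-IaaM, DefH9-IaaM and DefH9-RolB. In INO-RolB this alternative added a call of IAA27 (limma adjusted p = 0.0497). Subtracted array medians left 1 in DefH9-IaaM. Quantile normalization again and the replicate block each gave 2 in the IaaM lines against the control without seeds. Leaving out 1 array gave 0 to 3 in INO-IaaM, 1 to 3 in DefH9-IaaM and DefH9-RolB, and 0 to 2 in the IaaM lines against the control without seeds.

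Values that changed sign were uncalled. Leaving out 1 array, IAA27 lay between -0.33 and 0.12 without against with seeds and between -0.50 and 0.025 in DefH9-RolB. The interaction lay between -0.073 and 0.22 for IAA3 and between -0.46 and 0.069 (without DefH9-RolB replicate 1) for IAA27. The call of IAA27 in DefH9-IaaM was lost without control without seeds replicate 3, control with seeds replicate 1 or 3, INO-IaaM replicate 1 or 2, or any array of DefH9-IaaM or INO-RolB. Of single arrays left out, only control without seeds replicate 1, DefH9-IaaM replicate 3 and INO-RolB replicate 3 kept the call of the A probe set of IAA3. IAA2 lost its call in INO-IaaM without control with seeds replicate 3 or INO-IaaM replicate 2 or 3. The replicate block, which pairs samples by number, changed only the 4 member calls named with it in the report, one being IAA3 in INO-IaaM (adjusted p = 0.0526).

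Over all probe sets, the covariate took the calls from 1623 to 639 in INO-IaaM, 1782 to 881 in DefH9-IaaM, 2178 to 707 in INO-RolB and 1632 to 359 in DefH9-RolB, and from 1137 to 417 and 1688 to 353 for the IaaM and RolB lines against the control without seeds. With only the groups of the contrast, calls fell from 437 to 239 (244 with dim probe sets left out) without against with seeds, to 711 in DefH9-IaaM, 808 in DefH9-RolB, 528 for the IaaM lines against the control without seeds, and from 295 to 116 between the transgenes. Leaving out 1 array gave lows of 224 without against with seeds, 839 and 999 in the IaaM lines, 1188 and 660 in the RolB lines, 436 (high 1839) and 871 against the control without seeds, and 79 between the transgenes.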
